A study of Homo sapiens with 6 samples.

Results

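The 8 genes described here encode the proteins that turn mitochondrial citrate into fatty acids: SLC25A1, ACLY, ACSS2, ACACA, ACACB, FASN, MLYCD and ME1. They were chosen by name as the route from citrate to palmitate and were found as 8 of the 57905 rows of the deposited gene table. RNA sequencing was done on the human ovarian cancer line SKOV3, an established one, in 6 libraries. The 3 control libraries are labelled wild type and the 3 others carry an shRNA against CPT1A, the gate for long-chain fatty acids into mitochondrial oxidation; both groups were in normal culture and no other agent is named. The labels mention no control hairpin, and the table's columns for the shRNA libraries carry the tag sh2, so that carrying a hairpin and losing CPT1A cannot be told apart. Replicates are called biological, but whether they were separate cultures is not stated, and p-values measure the spread between these libraries only.

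In this pathway citrate leaves the mitochondrion through the carrier SLC25A1 and is split in the cytosol by ACLY into acetyl-CoA and oxaloacetate, while ACSS2 makes acetyl-CoA from acetate. The acetyl-CoA carboxylases ACACA and ACACB add a carboxyl group to give malonyl-CoA, FASN builds palmitate from malonyl-CoA with electrons from NADPH, and ME1 supplies NADPH. The product of ACACB is made at the mitochondrial surface, where malonyl-CoA inhibits CPT1 enzymes, and MLYCD removes malonyl-CoA again. Several of these genes are known targets of the SREBP transcription factors, and cancer cells often run this synthesis at a high rate.

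CPT1A itself was at 6.7, 8.06 and 8.0 FPKM in control replicates 1, 2 and 3 and at 2.16, 2.0 and 1.96 FPKM in the shRNA libraries (FPKM: reads per kilobase of exon, relative to the library's summed counts). Libraries held 15740143 to 22271565 counts. The first principal component separated the groups and carried 61.2% of the variance. On it control replicates 1 and 3 scored -36.1 and -34.6, the shRNA libraries 26.5 to 32.9, and control replicate 2 stood between at -17.7. Of 11 markers listed for the line, 9 reached the expression minimum, and 4 of these, KRT19, KRT7, KRT8 and PAX8, were called lower (13.7% of all tested genes were). EPCAM, MSLN, KRT18, CDH1 and ERBB2 were not called, ERBB2 with a log2 change of 0.19 and the other 4 with -0.33 to -0.09. The 11 markers had a summed level of 1671 to 2053 FPKM in control and 1158 to 1325 FPKM in shRNA libraries. The ovarian cancer marker MUC16 was at 0.01 to 0.03 FPKM. WT1, like MUC16 not tested, was higher, at 0.57, 0.64 and 0.82 FPKM in control and 0.87, 0.87 and 1.24 FPKM in shRNA libraries. None of the fibroblast, endothelial, immune or adipocyte markers reached the minimum, and each of these lists summed to at most 1.41 FPKM in any library. The fibroblast list summed to 1.01 to 1.37 FPKM in control and to 0.22 to 0.39 FPKM in shRNA libraries. Most of this fall was in LUM, at 0.96, 1.0 and 0.64 FPKM in control and 0.21, 0.13 and 0.09 FPKM in shRNA libraries. The endothelial list summed to 0.17 to 0.24 FPKM in control and 0.43 to 0.65 FPKM in shRNA libraries. KDR carried its rise, at 0.13, 0.11 and 0.17 FPKM in control and 0.42, 0.31 and 0.57 FPKM in shRNA libraries. The other endothelial markers found were at 0.09 FPKM or less in every library. T cell marker CD3E and adipocyte genes ADIPOQ and LEP had no count. The part of these differences in the results that follow was not tested, and in bulk RNA fewer cells of a type and less RNA per cell cannot be told apart.

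In the libraries with the CPT1A shRNA, transcripts of the citrate carrier SLC25A1, the acetate-activating enzyme ACSS2 and the synthase FASN fell, and those of the carboxylase ACACB rose. ACLY, ACACA, MLYCD and ME1 did not pass the test. The test was edgeR's quasi-likelihood test of the counts of 12784 genes, those reaching 1 FPKM in 3 or more libraries, and a call means a p below 0.05 after Benjamini-Hochberg adjustment over all of them. Of the 8 genes 3 were called lower and 1 higher, against a background of 13.7% of all tested genes called lower and 13.8% higher (27.4% in either direction). For 4 of the 8 the FPKM of the groups did not overlap, which held for 42.6% of all tested genes. The median log2 change of the 8 was -0.11, against -0.01 over all tested genes. All 8 passed the expression minimum, but ACACB did so only through the shRNA libraries.

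**Figure D1:**
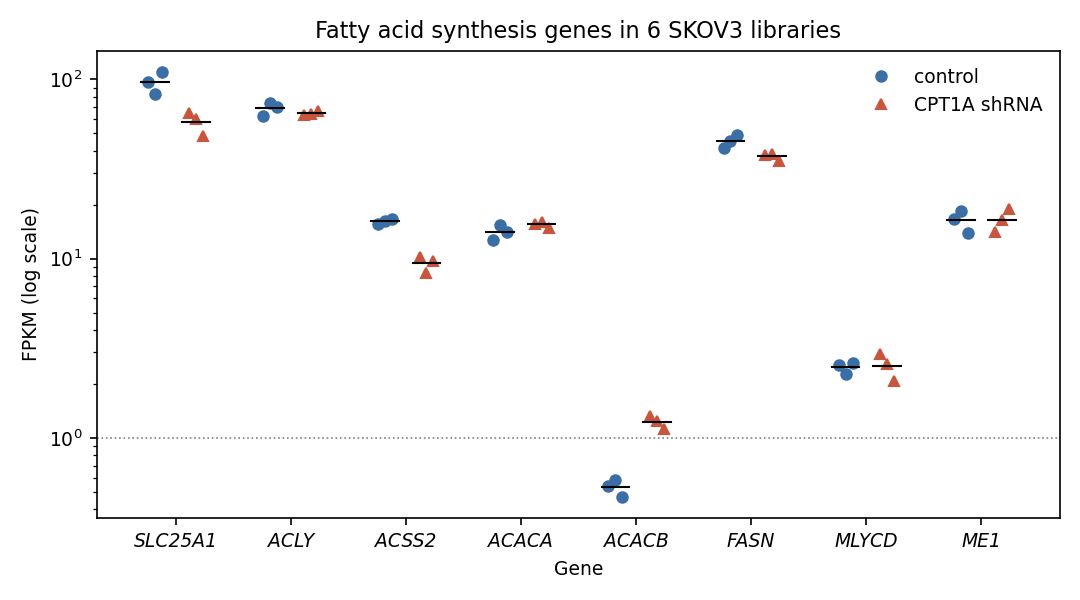
FPKM on a log scale of the 8 genes in each library; circles are the 3 control libraries, triangles the 3 CPT1A shRNA libraries, black lines group means and the dotted line the minimum of 1 FPKM. SLC25A1, ACSS2 and FASN lie lower in all 3 shRNA libraries, ACACB lies higher in all 3, and the groups overlap for the other 4 genes.

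The upstream sequences of the 2 most lowered genes and of ACACB are shown because these genes moved furthest, in opposite directions. They are the 250 bases before each RefSeq start (build GRCh38.p14, 5′ to 3′ along the gene), and RefSeq windows were found for 7 of the 8 genes, all but FASN. Capitals mark matches on either strand to CCAAT, the letters of a CCAAT box, or GGGCGG, those of a GC box, and overlapping matches were counted separately.
SLC25A1, chr22:19178737-19178986 (minus strand): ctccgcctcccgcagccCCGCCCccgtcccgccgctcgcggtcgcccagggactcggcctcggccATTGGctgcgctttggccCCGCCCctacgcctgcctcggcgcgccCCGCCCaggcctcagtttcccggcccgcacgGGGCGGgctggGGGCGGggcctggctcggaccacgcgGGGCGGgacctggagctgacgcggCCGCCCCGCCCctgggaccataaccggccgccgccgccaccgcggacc
ACSS2 upstream start, chr20:34874739-34874988 (plus strand): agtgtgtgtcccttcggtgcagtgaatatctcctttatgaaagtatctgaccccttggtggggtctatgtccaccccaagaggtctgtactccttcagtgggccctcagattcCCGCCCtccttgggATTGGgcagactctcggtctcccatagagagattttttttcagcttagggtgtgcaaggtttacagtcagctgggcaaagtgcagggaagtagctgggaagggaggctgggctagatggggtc
ACSS2 downstream start, chr20:34876362-34876611 (plus strand): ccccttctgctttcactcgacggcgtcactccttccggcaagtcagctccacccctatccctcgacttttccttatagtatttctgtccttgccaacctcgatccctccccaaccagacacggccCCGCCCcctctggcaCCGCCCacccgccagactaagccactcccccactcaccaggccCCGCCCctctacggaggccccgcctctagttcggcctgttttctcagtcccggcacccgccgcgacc
ACACB upstream start, chr12:109116337-109116586 (plus strand): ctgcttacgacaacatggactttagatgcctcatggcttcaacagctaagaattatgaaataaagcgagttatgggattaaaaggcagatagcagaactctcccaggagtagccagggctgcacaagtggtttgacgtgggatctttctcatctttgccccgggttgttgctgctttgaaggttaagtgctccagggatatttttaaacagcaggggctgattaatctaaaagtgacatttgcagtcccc
ACACB downstream start, chr12:109154429-109154678 (plus strand): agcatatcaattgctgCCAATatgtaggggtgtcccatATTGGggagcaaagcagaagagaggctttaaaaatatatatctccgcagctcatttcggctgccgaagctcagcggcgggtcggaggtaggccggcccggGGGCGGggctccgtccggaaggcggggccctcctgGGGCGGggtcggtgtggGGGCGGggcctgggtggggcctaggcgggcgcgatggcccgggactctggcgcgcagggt
The SLC25A1 window held 8 matches to GGGCGG. Of the 7 genes 6 held CCAAT and 7 held GGGCGG in at least 1 window, against 37.0% and 46.2% of the 27305 genes with such windows. Genes with several starts have several windows to match. The 27305 genes were neither limited to the tested ones nor matched for GC content. The upstream ACACB window held neither motif and had a GC content of 45.2%, and the downstream one held both and had 66.4%. The sterol regulatory element letters TCACNCCAC were in none of the windows of these 7 genes and in those of 1.09% of all genes. The E-box CACGTG was likewise in none, against 7.73%. With shares this low, finding none among 7 genes carries no weight, and FASN had no window. These counts describe letters in short windows only, and the gene-level counts do not say from which ACACB or ACSS2 start the reads came.

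SLC25A1, the exporter of citrate from the matrix, had 96.6, 82.7 and 110.1 FPKM in control replicates 1 to 3 and 65.3, 60.0 and 48.5 FPKM in shRNA replicates 1 to 3. The groups did not overlap, and control replicate 2 was the lowest of its group. The fitted log2 change was -0.81 ± 0.19 (SE), a 1.75-fold decrease (edgeR adjusted p = 0.00134), with a 95% interval from limma of -1.12 to -0.50. SLC25A1 (ENSG00000100075) spans bases 19163095 to 19166343 of chromosome 22 (minus strand) by the authors' table (the build named in the submitters' processing notes, mm8, is a mouse one, so that the human build is not known). Without control replicate 2 its log2 change was -0.93, and without control replicate 3 it was -0.68.

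ACSS2, the cytosolic acetyl-CoA synthetase that uses acetate, had 15.6, 16.3 and 16.7 FPKM in the control libraries and 10.2, 8.35 and 9.71 FPKM in the shRNA libraries. The control values lay within a narrow band and all 3 shRNA values were far below it. The fitted log2 change was -0.86 ± 0.09 (SE), a 1.81-fold decrease and the lowest of the 8 genes (edgeR adjusted p = 0.000352; limma 95% interval -1.12 to -0.60). ACSS2 (ENSG00000131069; chromosome 20, plus strand, 33459949 to 33515769 in the authors' table) overlaps GGT7 on the other strand over 715 bases. GGT7 averaged 2.78 ± 0.38 FPKM in the controls and 2.57 ± 0.19 FPKM with the shRNA (SD, n = 3 each; edgeR adjusted p = 0.475). Whether the counting used strand is not stated.

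ACACB, the carboxylase of the mitochondrial surface, had 0.54, 0.58 and 0.47 FPKM in the control libraries and 1.32, 1.24 and 1.12 FPKM in the shRNA libraries. Every shRNA library was above every control library, but the level stayed the lowest of the 8 genes in both groups. These values rest on 140, 184 and 129 counts in control and 351, 277 and 299 counts in shRNA libraries, and in the library with 129 counts the counting error alone is 8.8%. The fitted log2 change was 1.13 ± 0.09 (SE), a 2.19-fold increase (edgeR adjusted p = 0.000387; limma 95% interval 0.77 to 1.48). Because only the shRNA libraries reached 1 FPKM, ACACB entered the test through the group where it was high. With every gene that had a count its log2 change was likewise 1.13 (edgeR adjusted p = 7.95e-07), and with edgeR's own count filter it was 1.12 (edgeR adjusted p = 0.000289). On log2(FPKM + 1) it was 0.54 (limma adjusted p = 0.0139), since the pseudocount exceeds the control level. ACACB (ENSG00000076555) spans bases 109554400 to 109706031 of chromosome 12 (plus strand) by the authors' table; the one gene overlapping it, RP11-968O1.5, had at most 2 counts in any library.

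FASN, which carries out the whole assembly of palmitate, had 41.4, 45.4 and 48.8 FPKM in the control libraries and 37.9, 38.5 and 35.2 FPKM in the shRNA libraries. The groups were separate, with control replicate 1 and shRNA replicate 2 nearest to each other. The fitted log2 change was -0.35 ± 0.08 (SE), a 1.28-fold decrease (edgeR adjusted p = 0.0237; limma 95% interval -0.57 to -0.13). Of the 4 calls this was the least stable one: leaving out control replicate 3 gave an edgeR adjusted p = 0.0772, and leaving out shRNA replicate 1, 2 or 3 gave 0.0569, 0.0867 and 0.095. The log2 changes were -0.27 without control replicate 3 and -0.36, -0.38 and -0.32 without shRNA replicates 1, 2 and 3, so the size of the change without an shRNA library stayed near that of the full fit. With a replicate block it was -0.35 (edgeR adjusted p = 0.0528). It was also lost on log2(FPKM + 1) (limma adjusted p = 0.0622). Over the 18 alternatives the adjusted p of FASN ran from 0.00453 to 0.095. FASN (ENSG00000169710) spans bases 80036214 to 80056208 of chromosome 17 (minus strand) by the authors' table.

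ACLY, the citrate-splitting enzyme that follows SLC25A1 in the route, had 62.5, 74.2 and 70.0 FPKM in the control libraries and 63.5, 64.2 and 67.1 FPKM in the shRNA libraries. The 3 shRNA values lay within the control range. Its log2 change was -0.16 ± 0.07 (SE; edgeR adjusted p = 0.269), and the limma 95% interval of -0.37 to 0.06 reaches from a 0.775-fold to a 1.04-fold level. ACLY (ENSG00000131473) spans bases 40023161 to 40086795 of chromosome 17 (minus strand) by the authors' table.

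ACACA, the cytosolic carboxylase that feeds FASN, had 12.7, 15.5 and 14.1 FPKM in the control libraries and 15.6, 16.1 and 14.9 FPKM in the shRNA libraries. Control replicate 2 lay among the shRNA values. The log2 change was 0.07 ± 0.07 (SE; edgeR adjusted p = 0.67; limma 95% interval -0.16 to 0.29), and it turned to -0.23 once the length trend of the libraries was removed (edgeR adjusted p = 0.122). The interval holds no change as large as that of ACACB. ACACA (ENSG00000132142) spans bases 35441923 to 35766909 of chromosome 17 (minus strand) by the authors' table, and overlaps 5 genes, none of which reached the expression minimum.

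MLYCD, which breaks malonyl-CoA down to acetyl-CoA, had 2.54, 2.27 and 2.63 FPKM in the control libraries and 2.95, 2.57 and 2.07 FPKM in the shRNA libraries. The shRNA libraries spread further than the controls and enclosed them. The log2 change was -0.04 ± 0.17 (SE; edgeR adjusted p = 0.877), and the limma 95% interval of -0.44 to 0.33 spans a 0.739-fold to a 1.25-fold level. MLYCD (ENSG00000103150) spans bases 83932731 to 83949787 of chromosome 16 (plus strand) by the authors' table and had 207 to 295 counts in each library. RP11-505K9.4, on the same strand, overlaps it over 8050 bases and had at most 9 counts in any library.

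ME1, the cytosolic malic enzyme that makes NADPH from malate, had 16.7, 18.5 and 14.0 FPKM in the control libraries and 14.0, 16.4 and 18.9 FPKM in the shRNA libraries. The groups covered nearly the same range. The log2 change was -0.07 ± 0.16 (SE; edgeR adjusted p = 0.773; limma 95% interval -0.39 to 0.25), and its sign varied with the scaling. ME1 (ENSG00000065833) spans bases 83920108 to 84140797 of chromosome 6 (minus strand) by the authors' table. RP11-378G13.2 and AL391416.1, which overlap it on the opposite strand, had no count in any library.

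**Figure D2:**
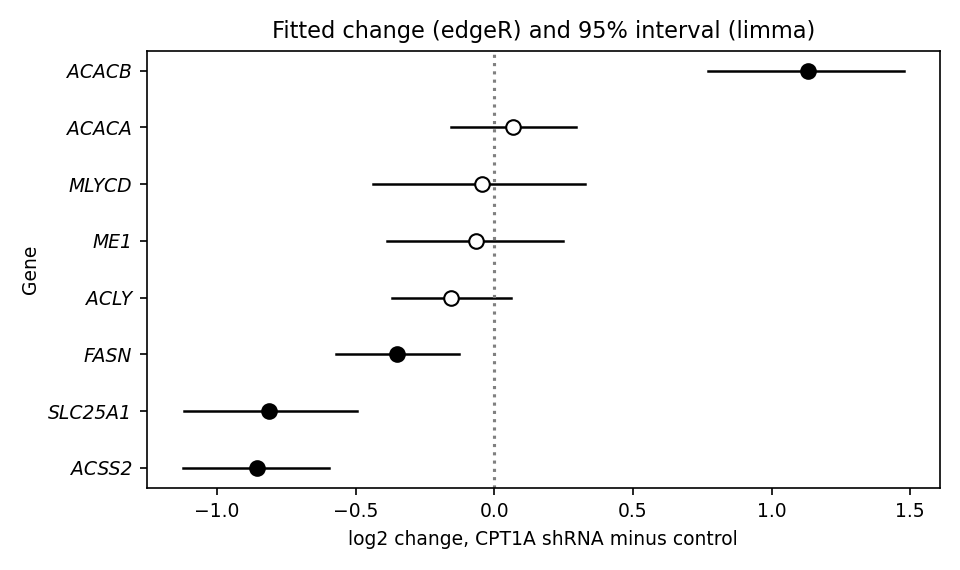
Fitted log2 change (edgeR, points) of the 8 genes in CPT1A shRNA against control libraries, with 95% intervals from limma; filled points are genes with an edgeR adjusted p under 0.05. SLC25A1 and ACSS2 lie near -0.8, FASN at -0.35 and ACACB at 1.13, and the intervals of the other 4 genes cross 0.

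The levels per length (FPKM) were ordered as follows in the control libraries. SLC25A1 was highest at 96.5 FPKM on average, followed by ACLY at 68.9, FASN at 45.2, ME1 at 16.4, ACSS2 at 16.2, ACACA at 14.1, MLYCD at 2.48 and ACACB at 0.53 FPKM. Between neighbours in this order the library values overlapped for ME1 and ACSS2 only. The range of ME1 (13.96 to 18.5 FPKM) also overlapped that of ACACA (12.7 to 15.5 FPKM), so that the place of ME1 among these 3 genes is not set. In the shRNA libraries ACLY (64.9 FPKM) and SLC25A1 (57.9 FPKM) overlapped at the top, and ACSS2, at 9.42 FPKM, lay below ACACA (15.5 FPKM) in all 3 libraries.

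Ratios between members within 1 library do not depend on the scaling between libraries, and they are given as a description without a test. Those of SLC25A1 to ACLY and of FASN to ACACA were not among the ratios planned. ACACB made up 4.07%, 3.61% and 3.22% of the summed ACACA and ACACB FPKM in the control libraries and 7.82%, 7.15% and 7.0% in the shRNA libraries. ACACA thus remained the main carboxylase transcript in every library, and the sum of both was 13.3 to 16.1 FPKM in control and 16.01 to 17.35 FPKM in shRNA libraries, which overlap. On the supply side the FPKM ratio of ACLY to ACSS2 was 3.996, 4.54 and 4.18 in control and 6.22, 7.69 and 6.91 in shRNA libraries. The ratio of SLC25A1 to ACLY was 1.55, 1.12 and 1.57 in control and 1.03, 0.934 and 0.723 in shRNA libraries, control replicate 2 being nearest to the shRNA group. These 2 genes differ in exonic length (2089 and 5217 bases), so the length trend described below does not cancel in their ratio. With that trend removed their log2 changes were -0.65 and -0.19, in place of -0.81 and -0.16. The ratio of FASN to ACACA was 3.21 ± 0.26 in control and 2.40 ± 0.04 in shRNA libraries (mean ± SD, n = 3 each), also without overlap, whereas that of both carboxylases to MLYCD overlapped at 5.95 ± 0.99 and 6.74 ± 1.01.

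**Figure D3:**
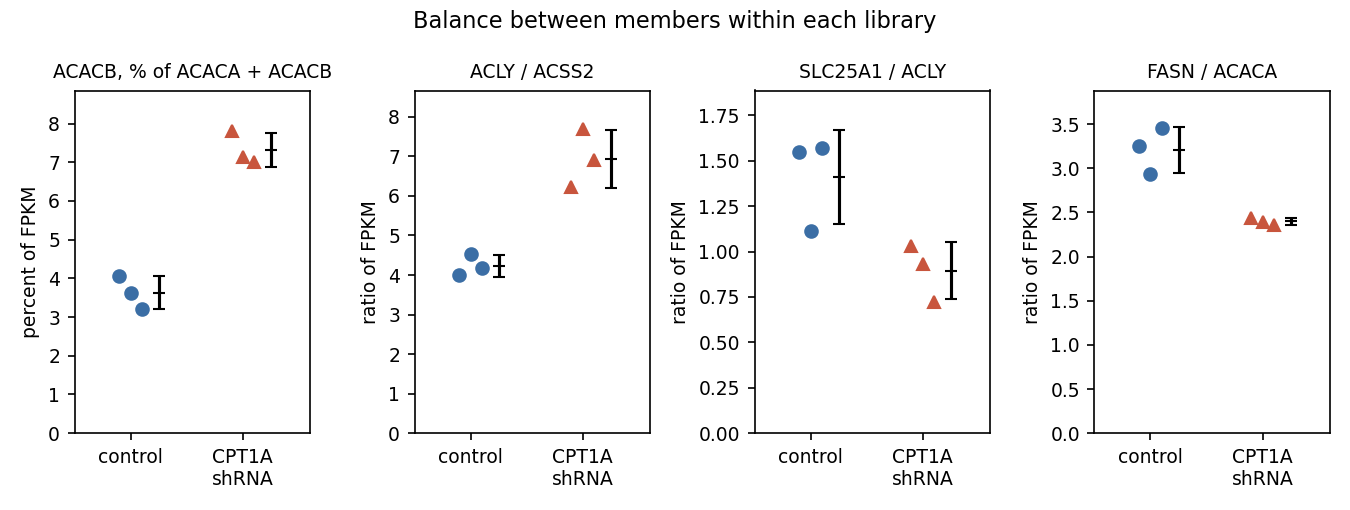
Balance between members within each library: ACACB as a percentage of ACACA + ACACB FPKM, and the FPKM ratios of ACLY to ACSS2, SLC25A1 to ACLY and FASN to ACACA. Symbols are single libraries, and lines with caps are the mean ± SD of 3 libraries. In each of the 4 panels the 2 groups do not overlap, and each sets a called gene against one that was not called. The ratio of both carboxylases to MLYCD, which overlaps, is not shown.

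Gene length moved with the difference between the groups. With all tested genes split by exonic length into 5 classes of equal size, the median log2 change was -0.16 in the shortest class, where 5.67% were called higher, and 0.16 in the longest, where 26.0% were. ACACA, ACACB and FASN, with exonic lengths of 13766, 14159 and 8979 bases, are in the longest class, and SLC25A1 (2089 bases) and ME1 are in the second shortest. With each library's length trend removed the log2 changes were 0.83 for ACACB (edgeR adjusted p = 0.0017), -0.65 for SLC25A1 (0.0027), -0.90 for ACSS2 (0.00016) and -0.53 for FASN (0.0045), so that the same 4 genes were called. What lies behind the length trend was not tested.

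The lists of neighbouring steps were written from general knowledge with earlier results of these data known, and they are described without a test of the list. Among 14 tested genes listed for the supply of citrate and acetyl-CoA, carriers included, 1 was called higher and 1 lower, beside 13.8% and 13.7% of all tested genes. The higher count was 3 with total counts alone, on both FPKM scales and at a minimum of 5 FPKM, and 0 with a replicate block, with no filter or with the length trend removed. Without control replicate 3 it was 2, and without control replicate 2 the lower count was 2. The median log2 change was -0.05, and it ran from -0.11 without control replicate 2 to 0.02 without control replicate 3. AACS, the cytosolic ligase that activates acetoacetate for lipid synthesis, fell from 2.72 ± 0.21 to 0.977 ± 0.124 FPKM (2.93-fold, edgeR adjusted p = 2.86e-05). CS, the citrate synthase of the matrix, rose from 38.9 ± 2.2 to 51.1 ± 2.7 FPKM (edgeR adjusted p = 0.028), a call that did not survive leaving out control replicate 1 or shRNA replicate 2 or 3 (edgeR adjusted p up to 0.122).

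Among 14 tested genes listed for NADPH supply 4 were called lower and 2 higher, beside 13.7% and 13.8% of all tested genes. The median log2 change was -0.28. Both higher genes, MTHFD2 and ME2, encode mitochondrial enzymes, and which cofactor the listed enzymes use was not measured. IDH1, the cytosolic NADP-dependent isocitrate dehydrogenase, fell from 33.3 ± 2.7 to 26.2 ± 1.3 FPKM and the transketolase TKT from 112.4 ± 8.4 to 92.7 ± 4.1 FPKM (edgeR adjusted p = 0.0118 and 0.0228). MTHFD2, of mitochondrial folate metabolism, rose from 14.0 ± 2.3 to 23.1 ± 3.8 FPKM, and the mitochondrial malic enzyme ME2 from 14.4 ± 2.5 to 20.8 ± 2.6 FPKM (edgeR adjusted p = 0.0053 and 0.0319). The calls of TKT and ME2 were each lost when control replicate 1 or 3 or shRNA replicate 2 or 3 was left out (edgeR adjusted p up to 0.124 and 0.148). The lower calls depended on single libraries: without control replicate 1, and likewise without shRNA replicate 2, edgeR called 0 genes lower, without shRNA replicate 3 it called 1, without control replicate 3 or shRNA replicate 1 it called 2, and without control replicate 2 it called 7. The count was also 2 with total counts alone, on log2(FPKM + 1) or with a replicate block, and 1 on log2(FPKM + 0.1); with the length trend removed the median was -0.14. In the fit of all libraries 7 genes were lower at an unadjusted p under 0.05, and DESeq2 called 5 lower.

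AMP-activated kinase phosphorylates and inhibits both carboxylases. Of 11 tested genes of this kinase and its activators 3 were called higher by edgeR, beside 13.8% of all tested genes. At an unadjusted p under 0.05 there were 4 in that direction. None was called lower by edgeR, DESeq2 or limma on log2 CPM, and 0 were lower at an unadjusted p under 0.05. The median log2 change was 0.28, and it was 0.19 without control replicate 3 and 0.47 without control replicate 2. With the length trend removed it was also 0.19, and 2 genes were called higher. The regulatory subunit PRKAB2 rose from 3.30 ± 0.89 to 6.55 ± 0.78 FPKM (edgeR adjusted p = 0.00289). STRADB, of the STK11 complex, rose from 13.6 ± 1.8 to 20.0 ± 0.9 FPKM (edgeR adjusted p = 0.013) and the upstream kinase CAMKK2 from 10.2 ± 0.9 to 14.3 ± 1.0 FPKM (edgeR adjusted p = 0.0167). The catalytic subunit PRKAA1 was not called (log2 change 0.28, edgeR adjusted p = 0.444), and PRKAA2, at 0.54 to 1.25 FPKM, was not tested. Also without a call, CAB39, PRKAG2 and STRADA had log2 changes of 0.11 to 0.37. PRKAG1, STK11, CAB39L and PRKAB1, not called either, had -0.21 to -0.01. Without control replicate 1 edgeR called 1 of the list higher, and without control replicate 2 it called 5 higher and 2 lower. The call of STRADB was lost without control replicate 1 and that of CAMKK2 without control replicate 1 or shRNA replicate 1 or 2 (edgeR adjusted p up to 0.0516 and 0.0992). STRADB overlaps TRAK2 on the other strand, which was also higher (log2 change 0.61).

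Among 15 tested regulators of lipogenic transcription 4 were called lower and 0 higher by edgeR, beside 13.7% and 13.8% of all tested genes. At an unadjusted p under 0.05 there was 1 higher; DESeq2 called 1 higher and limma 0, and edgeR called 1 higher without control replicate 2, with a replicate block or with no filter. The median log2 change was -0.11, and it was -0.02 without control replicate 3, -0.18 without control replicate 2 and -0.04 with total counts alone. SREBF1, which encodes SREBP-1, was at 16.3, 14.7 and 17.4 FPKM in control and at 11.3, 8.81 and 7.0 FPKM in shRNA libraries (log2 change -0.91 ± 0.22 SE, edgeR adjusted p = 0.00124); RAI1, on the opposite strand and overlapping it, had -0.30 (edgeR adjusted p = 0.157). INSIG1, which retains SREBPs in the endoplasmic reticulum, fell from 26.3 ± 5.3 to 15.0 ± 1.7 FPKM and INSIG2 from 2.83 ± 0.48 to 1.79 ± 0.17 FPKM (edgeR adjusted p = 0.00121 and 0.0106). SREBF2 had a log2 change of -0.38 (edgeR adjusted p = 0.0196), a call lost without shRNA replicate 2 or 3 (edgeR adjusted p up to 0.126), and it overlaps RP5-821D11.7 on the other strand, which fell as well (log2 change -1.0, edgeR adjusted p = 0.00332). The carbohydrate-response factor MLXIPL was below the minimum at 0.15 to 0.62 FPKM.

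The steps after palmitate, desaturation and elongation, had 5 of 16 tested genes called lower and 1 higher, beside 13.7% and 13.8% of all tested genes. The median log2 change of this list, -0.09, had no stable sign. It was 0.10 without control replicate 2, 0.02 without shRNA replicate 1 and 0.01 on log2(FPKM + 1). At its lowest it was -0.14 without shRNA replicate 2. The desaturase SCD fell by 1.19 on the log2 scale (edgeR adjusted p = 2.5e-05), FADS3 by 0.74, HACD1 by 0.65 and FADS2 by 0.70, while FADS1, which FADS2 overlaps on the opposite strand, had a log2 change of -0.31 (edgeR adjusted p = 0.0469). The count of higher genes was 0 to 3 with single libraries left out, the highest without control replicate 2. The count of lower genes was 4 with DESeq2 and also when any library except control replicate 2 was left out. In the separate mitochondrial fatty acid synthesis pathway edgeR called 0 of 10 tested genes, as did DESeq2 and limma on log2 CPM, and 1 was higher at an unadjusted p under 0.05. With total counts alone, on log2(FPKM + 1) and on log2(FPKM + 0.1), 1 was called higher; 1 was called lower without control replicate 3, and 1 was called each way with the length trend removed. The median log2 change of this list was 0.05, with no stable sign: it was -0.05 without control replicate 2, and 0.0069 and 0.0061 without shRNA replicates 2 and 3. In cholesterol synthesis, the other pathway that starts from cytosolic acetyl-CoA, 17 of 22 tested genes were called lower and 1 higher. Of all tested genes 13.7% were called lower and 13.8% higher. The median log2 change of the cholesterol list was -0.80. DHCR7, ACAT2, FDFT1 and HSD17B7 had the smallest p-values there, with log2 changes of -1.91, -1.99, -1.58 and -1.45; ACAT2 overlaps TCP1 and SOD2, and DHCR7 overlaps RP11-660L16.2, all on the opposite strand. SLC25A1 and ACSS2, at -0.81 and -0.86, lay near the median of the cholesterol list, whereas FASN, ACLY and ACACA lay nearer to 0. Of the carnitine palmitoyltransferases that malonyl-CoA acts on, CPT1B had a log2 change of -0.21 (edgeR adjusted p = 0.506) and CPT1C was below the minimum at 0.22 to 0.39 FPKM; CPT2, of the inner membrane, had 0.23 (edgeR adjusted p = 0.223).

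**Figure D4:**
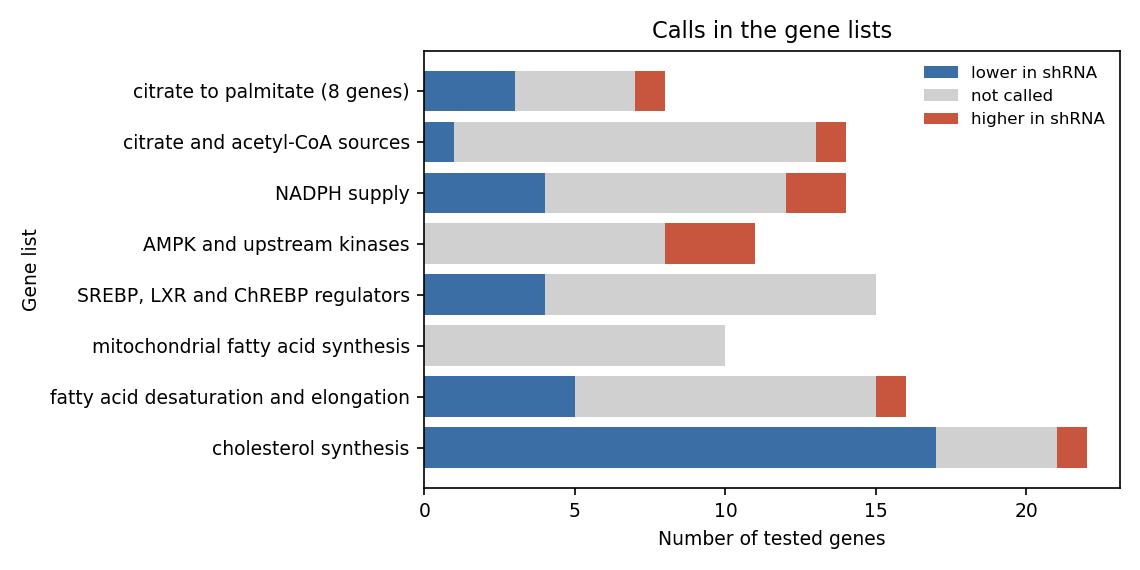
Number of tested genes called lower, not called and called higher in the shRNA libraries (edgeR adjusted p under 0.05) in the 8 genes from citrate to palmitate and in 7 lists of neighbouring steps. Cholesterol synthesis has 17 of 22 genes lower, and the 8 genes have 3 lower and 1 higher. Of all tested genes 13.7% were called lower and 13.8% higher.

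The genes whose profile over the 6 libraries was nearest to that of each called member were found from log2 CPM minus the control mean, by the root mean square distance. Nearest to ACACB were PDP2, a phosphatase that activates pyruvate dehydrogenase, the transcription factor ETV5 and SNX29, at distances of 0.0679, 0.0731 and 0.0739 log2 units. Nearest to SLC25A1 were TRIM47, DEAF1 and SNCG (0.056 to 0.0601; DEAF1 overlaps EPS8L2, which was lower by a like amount, log2 change -0.91), and nearest to ACSS2 were the chemokine gene CXCL3, DNAJB2 and ZUFSP (0.0415 to 0.0684). FASN was nearest to SPECC1L, PACSIN2 and NFKB1 (0.0339 to 0.0433). SPECC1L was itself not called (edgeR adjusted p = 0.0537), and the calls of PACSIN2 and NFKB1 were lost in 11 and 8 of 18 alternatives. PACSIN2 overlaps ARFGAP3 on the same strand, which had a log2 change of -0.41 (edgeR adjusted p = 0.0699). With 2 groups of 3 libraries such nearness mostly says that the group difference was of like size.

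**Figure D5:**
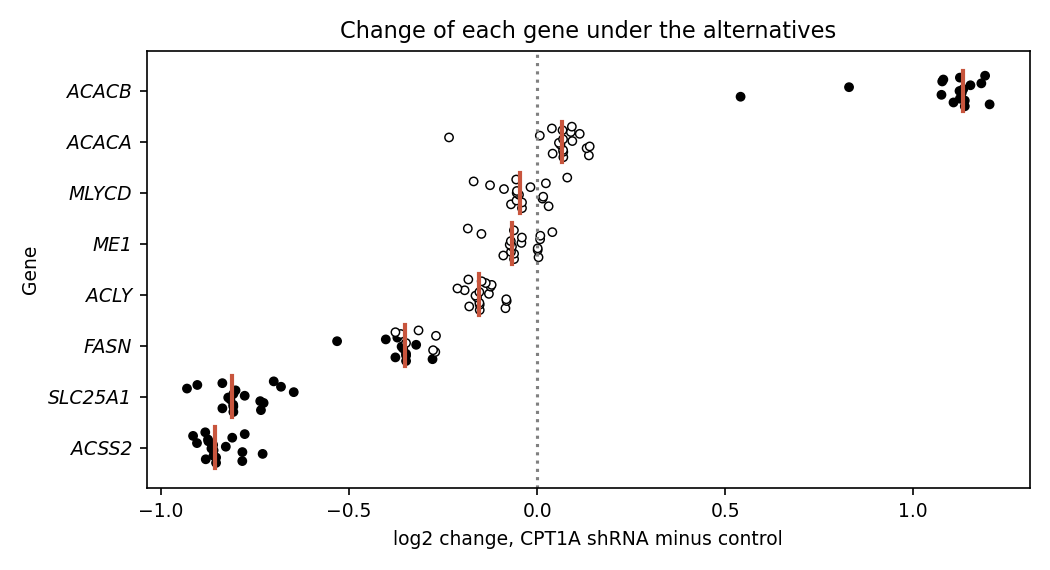
Log2 change of each gene, CPT1A shRNA minus control, under the alternative settings; each point is 1 alternative (18 per gene, 17 for ACACB and MLYCD), filled where its adjusted p was under 0.05, and the red line is the value in the text. SLC25A1, ACSS2 and ACACB are filled throughout, FASN in 11 of 18, and the other 4 genes in none.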

How the data were processed

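Total RNA of 6 SKOV3 libraries, 3 control and 3 with a CPT1A shRNA, was sequenced after poly(A) selection or rRNA removal (the labels name both). The authors deposited raw counts per gene. The submitters' processing notes list HTSeq 0.6.1, HISAT2 2.0.1, cutadapt 1.9.1 and DESeq2 with no role, and the mouse build mm8, although the table holds human Ensembl identifiers. None of the 7 members found in GENCODE 29 has the start it has on GRCh38, and the build and the strand setting are not given in the sources used here. The deposited FPKM values equal counts over exonic kilobases and the library's summed counts, within 0.0051, for 100% of values. Upstream sequences are from RefSeq.

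Counts of genes reaching 1 FPKM in 3 or more of 6 libraries were scaled by TMM and tested with edgeR 4.0.16 (quasi-likelihood, R 4.3.3), with Benjamini-Hochberg adjustment over all 12784. Log2 changes are fitted; SEs are of the difference of mean log2 CPM (prior count 2), and 95% intervals come from limma 3.58.1 on log2 CPM. Since FPKM are relative to total counts, folds of mean FPKM differ slightly from fitted ones. The procedure was tested on simulated data. Alternatives were other scalings, DESeq2 1.42.0, limma on log2(FPKM + 1) and log2(FPKM + 0.1), other filters, removal of a lowess curve on log2 length, the replicate number as a block, and leaving out each library. The members and lists were chosen with earlier results of these data known. Genes named are the members, the CPT genes and genes overlapping members, with those of ACACA only counted. Also named are the 3 nearest profiles of each called member and up to 4 called genes with the smallest p in each list. Markers, genes overlapping other named genes, MLXIPL and the kinase list's genes without a call were named after their values were seen. 4 genes of the lists were matched by Ensembl identifier under older symbols.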

Additional observations from a re-analysis of the deposited data

How the results depend on the processing

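Of the 8 genes, 4 were called in the fit of all libraries and 3 to 4 under each alternative. SLC25A1 (log2 change -0.93 to -0.65) and ACSS2 (-0.91 to -0.73) were called in all 18 alternatives and ACACB (0.54 to 1.2) in all 17 that tested it. A minimum of 5 FPKM removed ACACB and MLYCD from the test and left 0 members called higher. FASN (-0.53 to -0.27) was called in 11 of 18. Signs reversed only for genes without a call. ACACA was at -0.23 with the length trend removed. MLYCD was at 0.031 with total counts alone, 0.014 on log2(FPKM + 1) and 0.016 on log2(FPKM + 0.1), and it ran from -0.17 (without shRNA replicate 1) to 0.080 (without shRNA replicate 3) with single libraries left out. ME1 was at 0.0039 with total counts alone, 0.0017 on both log2(FPKM + 1) and log2(FPKM + 0.1), and 0.0081 with the length trend removed, and it ran from -0.18 (without shRNA replicate 3) to 0.041 (without shRNA replicate 1); the cause was not tested. Leaving out 1 library gave 1882 to 5050 called genes in place of 3509, 968 to 2539 higher and 914 to 2511 lower; the lowest counts were without control replicate 1, then without shRNA replicate 2 (2060), and the highest without control replicate 2. Higher genes made up 50.2% of the calls, 61.8% with total counts alone and 60.5% on log2(FPKM + 1). Deviations of same-numbered libraries from their group means correlated at -0.07, 0.01 and -0.25, so the numbers were not taken to pair the samples; with a replicate block 3261 genes were called and FASN had an edgeR adjusted p = 0.0528 (log2 change -0.35), while the other 7 members stayed on their side of the threshold. ACACB and MLYCD, with 129 to 351 counts per library, are the members whose precision depth limits most.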
